A study of Sus scrofa with 15 samples.

Results

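The enzymes of glycolysis, the pyruvate dehydrogenase complex and the pentose phosphate pathway were followed across 3 populations of porcine NK cells, together with 2 genes of the HIF axis. The group holds 31 genes chosen by symbol for their function, and all 31 were among the 29886 genes counted in the study. RNA came from 5 pigs, 6 months old, and each pig gave 3 libraries, 15 in all. All cells were sorted as CD3-CD172a- lymphocytes. Conventional NK cells (cNK cells) were the CD8α high cells of blood, and the liver of the same pigs, flushed through the portal vein, gave NK cells with high CD8α (liver CD8α high cells) and with dim CD8α (lrNK cells, for liver-resident). Libraries were sequenced from the 3′ end of transcripts, so a count does not grow with transcript length. Levels of different genes still depend on the annotated transcript ends and on reads with several alignments, so their order is that of the counts. Levels are given as CPM on TMM-scaled library sizes, and a change is a log2 fold change between populations, given with its standard error (SE) and tested with edgeR's quasi-likelihood test over 10939 genes and called at a Benjamini-Hochberg adjusted p under 0.05. The 3 comparisons share libraries with each other in pairs, so they do not repeat each other independently.

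Glycolysis splits glucose to pyruvate and yields ATP without oxygen. Pyruvate is either reduced to lactate or enters the mitochondrion, where pyruvate dehydrogenase turns it into acetyl-CoA unless the pyruvate dehydrogenase kinases switch the complex off. The pentose phosphate pathway branches off at glucose 6-phosphate and yields NADPH and ribose phosphate. In NK cells, cytokine activation is known to raise glucose use, and HIF1A is the oxygen-regulated factor that drives many genes of glycolysis.

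Counted reads ranged from 2874092 to 3823973 for cNK cells, with 3749615 as the median. For liver CD8α high cells the range was 2886686 to 5680221 (median 3877028). Depth was lowest by its median in CD8α dim lrNK cells, at 2407859, over a range of 2003499 to 3776823. The lrNK library of pig 3 stood apart: its mean correlation with the other lrNK libraries, over log2 CPM of the genes tested, was 0.833, against 0.893 to 0.910 for the other 4 lrNK libraries and 0.928 to 0.948 for the CD8α high libraries within their own populations. The calls of the group's genes are therefore also given without that library.

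The NK cell genes of a fixed marker list (*NCR1*, *KLRK1*, *NKG7*, *PRF1*, *KLRB1* and *CD8A*) were counted in all 15 libraries. *CD8A*, the gene of the sorting marker, was at 229, 634, 457, 532 and 476 CPM in blood pigs 1 to 5, at 276, 596, 426, 585 and 568 CPM in liver CD8α high cells and at 49.4, 37.9, 57.0, 29.5 and 43.1 CPM in CD8α dim lrNK cells. Every lrNK library was below every CD8α high library. Of the other NK genes, *NCR1*, *KLRB1* and *NKG7* were higher in CD8α dim lrNK cells than in both CD8α high populations (edgeR), and *KLRK1* and *PRF1* passed the test in no comparison. The lrNK library of pig 3 was an exception for *KLRB1*, at 193 CPM against 1089 to 2316 CPM in the other 4, and was below the blood and liver CD8α high libraries of the same pig (255 and 349.6 CPM). It was also the lowest of all 15 for *KLRK1*, at 75.5 CPM against 330.2 to 1168 CPM in the other 4 lrNK libraries. The liver CD8α high library of pig 1 had *NCR1* at 167 CPM, against 11.2 to 40.6 CPM in the other 4 of its population. That level was inside the lrNK range of 156 to 356 CPM. Its *KLRB1* level was 687 CPM, against 240 to 387 CPM in the other 4. Against blood, the call of *NKG7* was lost without pig 1, 3 or 5 (adjusted p = 0.0929, 0.165 and 0.147, edgeR), without the lrNK library of pig 3 (0.0567) and in a fit of only the 2 populations compared (0.0880). Within the liver it was lost without pig 1, 3, 4 or 5 (adjusted p = 0.0867, 0.130, 0.0691 and 0.161, edgeR), without the lrNK library of pig 3 (0.0641) and without the liver CD8α high library of pig 1 (0.0606). The adjusted p of these calls was 0.00482 to 0.165 and 0.00514 to 0.161 over the alternatives run (edgeR and DESeq2). Of the 5 T cell genes, *CD5* and *CD28* had 0 counts in all 15 libraries, *CD3D* was at 1.71 to 14.6 CPM, *CD3E* at 0 to 28.0 CPM and *CD3G* at 104 to 1176 CPM, and *CD3G* was lower in CD8α dim lrNK cells (log2 fold change -1.58, edgeR, SE 0.34, adjusted p = 0.00216 against blood).

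Of 5 B cell genes, 4 were tested and all 4, among them *MS4A1*, *CD79B* and *PAX5*, were called higher in CD8α dim lrNK cells against both CD8α high populations, while *CD79A* had 0 counts in all 15 libraries. Of all genes, 8.62% were called higher in CD8α dim lrNK cells against blood and 6.96% within the liver. Against blood, the call of *CD79B* was lost without pig 1, 2 or 4 and that of *PAX5* without pig 2 (adjusted p of 0.000427 to 0.0830 and 0.000120 to 0.0983 over the alternatives run, edgeR and DESeq2). Their summed level was 433, 632, 214, 685 and 251 CPM in the lrNK libraries of pigs 1 to 5, 57.2, 51.8, 109, 41.2 and 10.9 CPM in blood and 44.2, 24.8, 14.5, 1.38 and 0 CPM in liver CD8α high cells. *MS4A1* was the most abundant of them, at 239, 313, 152, 475 and 156 CPM in the lrNK libraries. In bulk RNA of sorted cells, fewer cells of a type and less RNA per cell cannot be told apart, and this holds for every level given here.

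Markers of hepatocytes, myeloid and endothelial cells were low. Of 6 hepatocyte genes, *APOA1*, *TTR* and *SERPINA1* had 0 counts in all 15 libraries, and the highest level of *ALB* was 6.74 CPM and of *TF* 9.74 CPM. The 7 myeloid genes summed to 4.68 ± 3.29 CPM (SD, n = 5) in blood, 4.01 ± 2.14 CPM in liver CD8α high cells and 11.9 ± 11.5 CPM in CD8α dim lrNK cells, with *CSF1R* and *CD163* at 0 throughout. *LYZ*, at 6.65, 4.32, 0, 25.6 and 6.27 CPM in CD8α dim lrNK cells and 1.04, 0.791, 0, 0 and 0 CPM in liver CD8α high cells, was called higher in the former (log2 fold change 4.57, edgeR, SE 1.37, adjusted p = 0.0272), but not in the fit blocked by pig (adjusted p = 0.0512) or without pig 4 or 5 (0.228 and 0.0811). Over the 15 alternatives that included *LYZ*, its log2 fold change was 3.20 to 5.39, lowest without pig 4, and its adjusted p 0.00809 to 0.228. Among 5 endothelial genes *STAB2*, *LYVE1* and *CDH5* had 0 counts and *PECAM1* was at 0 to 18.5 CPM. Erythroid transcripts were uneven, with *HBB* at 302 CPM in the blood library of pig 4 and 54.6 CPM in the liver CD8α high library of pig 1. Of the platelet list, *GP9* was at 65.8 to 178 CPM, *PPBP* at 0 to 2.35 CPM and *ITGA2B* at 0 to 7.32 CPM, and neither the erythroid nor the platelet list gave a call in the 1 gene of each that was tested (*HBB* and *GP9*, edgeR). Of 4 proliferation genes, *MKI67* was lower in CD8α dim lrNK cells than in blood (log2 fold change -2.56, edgeR, SE 0.51, adjusted p = 0.00109), while *CDK1* was not called and *CCNB1* did not pass the filter. *MKI67* was also lower in liver CD8α high cells than in blood in 5 of 5 pigs, without a call (-1.67, edgeR, SE 0.48, adjusted p = 0.544). Within the liver its log2 fold change was -0.90 (edgeR, SE 0.50, adjusted p = 0.287). *TOP2A* ran the other way without a call: it was at 7.89, 13.4, 14.6, 47.2 and 20.9 CPM in CD8α dim lrNK cells of pigs 1 to 5 and 2.17, 2.19, 4.61, 18.4 and 5.80 CPM in blood, above blood in 5 of 5 pigs, with a log2 fold change of 1.68 (edgeR, SE 0.68, adjusted p = 0.0976). In the fit blocked by pig its adjusted p was 0.0241 (edgeR), under the threshold.

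Levels of the group spanned a wide range. Averaged over the populations, *LDHB*, whose counts are uncertain, was highest with 315 CPM, followed by *PGAM1*, *ENO1*, *LDHA*, *PGK1*, *ALDOA*, *HK1* and *GAPDH*, at 115 to 209 CPM. Neighbours in this order overlapped in their libraries. At the other end, *HK2* and *ENO2* had 0 counts in all 15 libraries, where 0 counts allow a level of up to 0.517 to 1.46 CPM in a library (3 counts, counting error only). *PFKM* had 0 to 10 counts per library and did not pass the filter on low counts, which left 28 genes tested. *HIF1A* was close to the floor, with 0 to 19 counts per library. Summed over all 31 genes, the level was 2243 ± 228 CPM (SD, n = 5) in blood, 2285 ± 191 CPM in liver CD8α high cells and 2389 ± 356 CPM in CD8α dim lrNK cells, and the ranges overlapped.

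In CD8α dim lrNK cells, *ENO1*, of the lower steps of glycolysis, and *PDK1*, a kinase that switches off pyruvate dehydrogenase, were lower than in blood, and *PGD*, of the pentose phosphate pathway, was higher. These were 3 of the 28 genes tested, beside 18.2% of all genes. By direction, 1 was higher and 2 were lower, 3.57% and 7.14% of the group, beside 8.62% and 9.6% of all genes, so the group's share was not above the background. Against liver CD8α high cells, *ENO1* and *PDK1* were again lower and *TKT*, also of the pentose phosphate pathway, was higher, 3 of 28 beside 14.6% of all genes (6.96% higher and 7.68% lower). Whether a gene's difference from blood differed from that within the liver was not tested. Between the CD8α high populations of liver and blood, 0 of 28 were called, beside 0.064% of all genes (0.0457% higher and 0.0183% lower), with 0 of 28 at an unadjusted p under 0.05 (edgeR) and 0 called by DESeq2.

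The group's median log2 fold change was 0.14 for CD8α dim lrNK cells against blood, where that of all genes tested was 0.006. Within the liver the medians were 0.085 and 0.016, and for the CD8α high populations -0.024 and -0.024. The B cell list also differed between the same populations: 4 of its 4 genes tested were higher in CD8α dim lrNK cells, beside 8.62% of all genes against blood and 6.96% within the liver. Its sum was 214 to 685 CPM in the lrNK libraries against 0 to 109 CPM in the CD8α high libraries, *MS4A1* was its most abundant gene and *CD79A* was at 0. Whether the list and the called genes moved together from library to library was not tested. Of the T cell list, 1 of 3 genes tested, *CD3G*, was lower, beside 9.6% of all genes against blood and 7.68% within the liver. The list's sum was 593, 109.9, 120.3, 383 and 291 CPM in lrNK libraries, 637, 939.9, 742, 1199.7 and 878 CPM in blood and 720.3, 788, 714, 907 and 1076 CPM in liver CD8α high cells, nearly all from *CD3G*. Without a call, *CD3D* ran the other way, with log2 fold changes of 1.15 against blood (edgeR, SE 0.57, adjusted p = 0.188) and 0.20 within the liver (edgeR, SE 0.56, adjusted p = 0.885). *CD3E* ran down without a call (-2.21 and -2.05, edgeR, adjusted p = 0.301 and 0.381). The part of the B and T cell lists in the result was not tested.

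**Figure D1:**
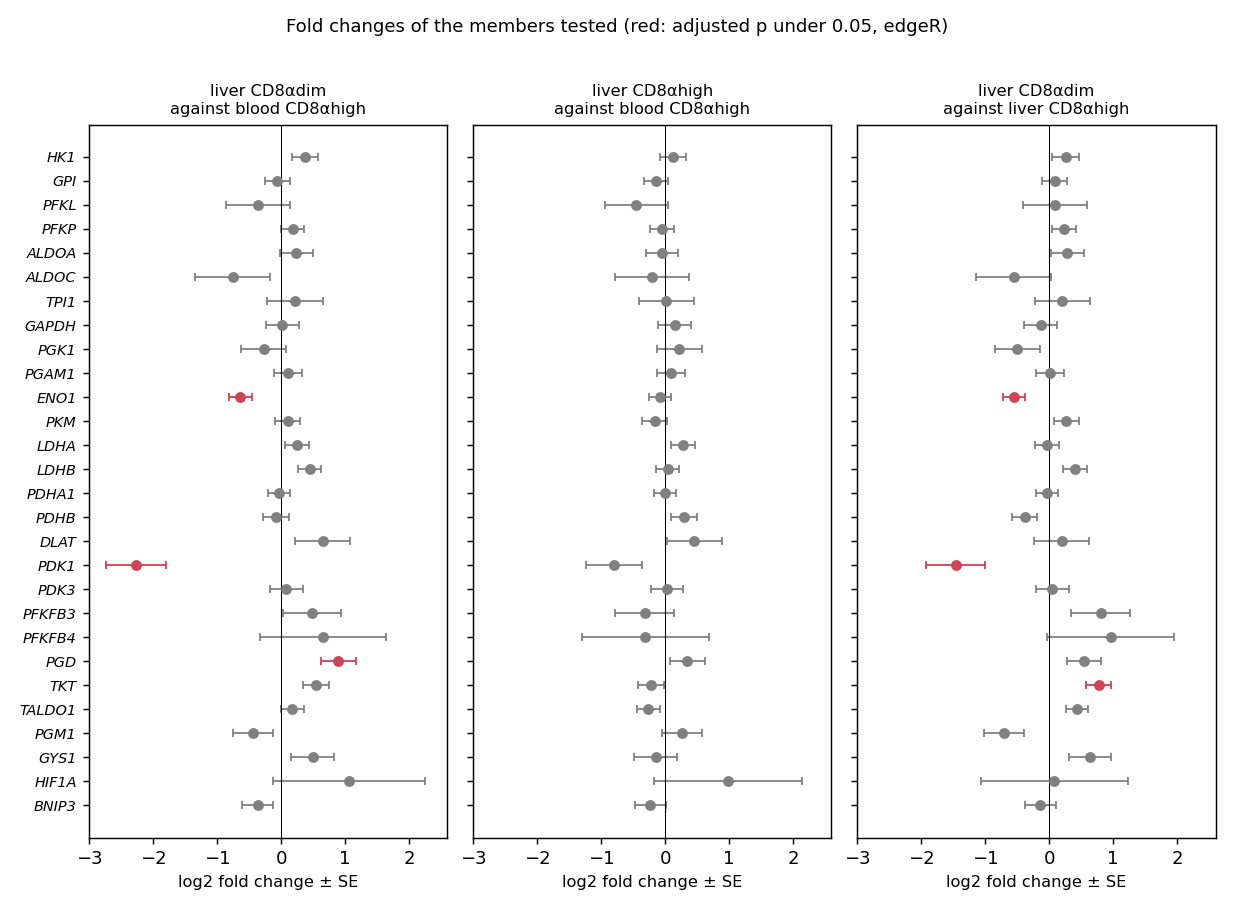
Log2 fold change with its standard error for each of the 28 genes tested, on the x axis, in the 3 comparisons of populations, with red points for an adjusted p under 0.05 (edgeR). *ENO1* and *PDK1* are left of 0 in both lrNK panels, and no point of the middle panel, liver against blood CD8α high NK cells, is red.

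*ENO1* encodes alpha-enolase, which makes phosphoenolpyruvate in the lower part of glycolysis. Its locus in Sscrofa11.1 is on chromosome 6 from 69385879 to 69401664. In blood pigs 1 to 5 its level was 218, 232, 229, 288 and 187 CPM, in liver CD8α high cells 197, 250.2, 222, 221 and 194 CPM and in CD8α dim lrNK cells 89.3, 168, 158, 168 and 159 CPM. All 5 lrNK libraries were below all 10 CD8α high libraries, and pig 1 was the lowest of them. Means were 231 ± 36.6 CPM (SD, n = 5) in blood, 217 ± 22.6 CPM in liver CD8α high cells and 148 ± 33.4 CPM in CD8α dim lrNK cells. The log2 fold change of CD8α dim lrNK cells was -0.64 (edgeR, SE 0.17, adjusted p = 0.0124) against blood and -0.55 (edgeR, SE 0.17, adjusted p = 0.0362) against liver CD8α high cells, with every pig lower in both. Without the lrNK library of pig 3 these were -0.64 and -0.57 (adjusted p = 0.0134 and 0.0343, edgeR). Over all alternatives run, the adjusted p was 0.000655 to 0.0497 against blood and 0.00541 to 0.113 against liver CD8α high cells. The call against liver CD8α high cells was lost in a fit of only the 2 populations compared (adjusted p = 0.0678) and with any 1 pig left out (adjusted p = 0.0915, 0.113, 0.0768, 0.0596 and 0.0724 without pigs 1 to 5, edgeR), while that against blood was not.

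The other enzymes of the lower steps did not pass the test in any comparison (0 of 4, edgeR, with 0 at an unadjusted p under 0.05 and 0 called by DESeq2). Of all genes, 18.2% were called in CD8α dim lrNK cells against blood, 14.6% within the liver and 0.064% between the CD8α high populations. *PGAM1* was at 121 to 314 CPM over the 15 libraries, *GAPDH* at 67.7 to 192 CPM, *PKM* at 69.3 to 156 CPM and *PGK1* at 16.1 to 211 CPM. The lowest *PGK1* level was that of the lrNK library of pig 3, with 16.1 CPM, while the other 4 lrNK libraries had 128 to 199 CPM. *ENO2*, the neuronal enolase, was not detected.

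In the upper steps, from hexokinase to triosephosphate isomerase, 0 of 7 genes tested were called in any comparison (edgeR). The shares of all genes called were 18.2% for CD8α dim lrNK cells against blood, 14.6% within the liver and 0.064% between the CD8α high populations. Of the 7, 0 had an unadjusted p under 0.05, and DESeq2 also called 0. Their log2 fold changes in CD8α dim lrNK cells ran from -0.76 to 0.37 against blood and from -0.56 to 0.29 against liver CD8α high cells. *HK1* had the highest counts of the hexokinase genes, at 91.7 to 243 CPM, with *HK2* at 0 and *HK3*, of the other glycolysis genes and also on the myeloid list, at 0 to 7.17 CPM. *GPI* was at 53.9 to 114 CPM, *ALDOA* at 93.1 to 285 CPM and *TPI1* at 5.96 to 21.7 CPM. Of the phosphofructokinase genes, the platelet form *PFKP* had 60.0 to 111 CPM and the liver form *PFKL* 2.08 to 20.9 CPM. The log2 ratio of *PFKP* to *PFKL* counts, with 0.5 added to each, was 2.80 ± 0.48 (SD, n = 5) in blood, 3.22 ± 0.17 in liver CD8α high cells and 3.75 ± 1.16 in CD8α dim lrNK cells, above 0 in all 15 libraries. *ALDOA* exceeded *ALDOC* in all 15 as well, by 3.70 ± 0.52 in blood and 3.85 ± 0.62 in liver CD8α high cells on the same scale and by 3.00 to 5.44 in the lrNK libraries other than that of pig 2. That library had 0 *ALDOC* counts, so its ratio is set by the 0.5 added and is only a lower bound.

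Lactate dehydrogenase joins lactate and pyruvate, with *LDHA* encoding the muscle subunit and *LDHB* the heart subunit. *LDHA* was at 137, 163, 173, 195 and 125 CPM in blood pigs 1 to 5, 154, 162, 217, 242 and 190.1 CPM in liver CD8α high cells and 192, 184, 129.6, 262 and 171 CPM in CD8α dim lrNK cells. For *LDHB* the levels were 309, 338, 287, 239 and 219 CPM, 304, 321, 323, 264 and 221 CPM and 238, 378, 471, 455 and 353 CPM. The populations overlapped for both genes and neither was called. For *LDHB*, the log2 fold change of CD8α dim lrNK cells against blood was 0.44 (edgeR, SE 0.18, adjusted p = 0.101), and an adjusted p under 0.05 was reached without pig 1 (0.0296, edgeR) and in DESeq2 with the pig as a block (0.0447), over a range of 0.0296 to 0.369. *LDHB* exceeded *LDHA* in all 15 libraries, with a log2 ratio of *LDHA* to *LDHB* of -0.81 ± 0.34 (SD, n = 5) in blood, -0.58 ± 0.41 in liver CD8α high cells and -1.01 ± 0.56 in CD8α dim lrNK cells. It is uncertain what the *LDHB* counts hold: in the RefSeq table it is a locus of 1280 bases on chromosome 2 from 12988754 to 12990033, wholly inside *LOC407246*.

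*PDK1* encodes a kinase that phosphorylates and switches off pyruvate dehydrogenase. It lies on chromosome 15 from 78608394 to 78650958. Its level was 21.7, 43.9, 25.2, 31.1 and 33.8 CPM in blood pigs 1 to 5, 15.9, 26.6, 14.5, 22.4 and 9.55 CPM in liver CD8α high cells and 6.23, 9.12, 0.487, 11.8 and 4.18 CPM in CD8α dim lrNK cells. All lrNK libraries lay below all blood libraries, and 1 of them, that of pig 4, was above the lowest liver CD8α high library, that of pig 5. Means were 31.1 ± 8.56 CPM (SD, n = 5), 17.8 ± 6.74 CPM and 6.36 ± 4.37 CPM. Against blood, the log2 fold change of CD8α dim lrNK cells was -2.27 (edgeR, SE 0.47, adjusted p = 0.00142), a 4.81-fold lower level. Within the liver the same difference was -1.46 (edgeR, SE 0.46, adjusted p = 0.0359). All 5 pigs were lower in both comparisons. *PDK1* was also lower in liver than in blood CD8α high NK cells of all 5 pigs, by a log2 fold change of -0.80 (edgeR, SE 0.43, adjusted p = 0.9996), which was not called.

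The lrNK counts of *PDK1* were low, from 1 in pig 3 to 42. Without the lrNK library of pig 3, its log2 fold changes were -1.98 against blood and -1.18 against liver CD8α high cells (adjusted p = 0.000551 and 0.0322, edgeR). The call against liver CD8α high cells was lost without pig 1, 2 or 5 (adjusted p = 0.0914, 0.117 and 0.0964, edgeR) and in a fit of only the 2 populations compared (0.113), with 0.00311 to 0.117 over all alternatives run. Against blood it was kept in all of them (adjusted p = 3.12e-07 to 0.0142). The locus overlaps *LOC106508120* by 22548 bases and *LOC110256990* by 4119 bases, which had 8 and 88 counts over all libraries against 980 for *PDK1*.

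*PDK3*, the other kinase of this step in the group, was not called in any comparison. It was at 73.7, 65.8, 46.1, 81.7 and 73.7 CPM in blood, 73.2, 89.9, 51.9, 60.0 and 73.1 CPM in liver CD8α high cells and 90.1, 112, 71.1, 35.9 and 52.2 CPM in CD8α dim lrNK cells of pigs 1 to 5. Its log2 fold change was 0.078 (edgeR, SE 0.26, adjusted p = 0.889) against blood, and the populations overlapped. Within libraries, the log2 ratio of *PDK1* to *PDK3* counts was -1.14 ± 0.46 (SD, n = 5) in blood, -2.02 ± 0.57 in liver CD8α high cells and -3.84 ± 1.79 in CD8α dim lrNK cells. Pig 3 pulled the last of these down and widened its SD: its ratio of -6.61 rests on 1 *PDK1* count, while the other 4 lrNK libraries were at -3.81 to -1.60. The ratio was below 0 in all 15 libraries, and the lrNK libraries other than that of pig 4 were below all blood libraries. The enzyme components themselves were not called in any comparison, with *PDHA1* at 63.4 to 104 CPM, *PDHB* at 37.3 to 80.5 CPM and *DLAT* at 3.75 to 22.2 CPM.

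**Figure D2:**
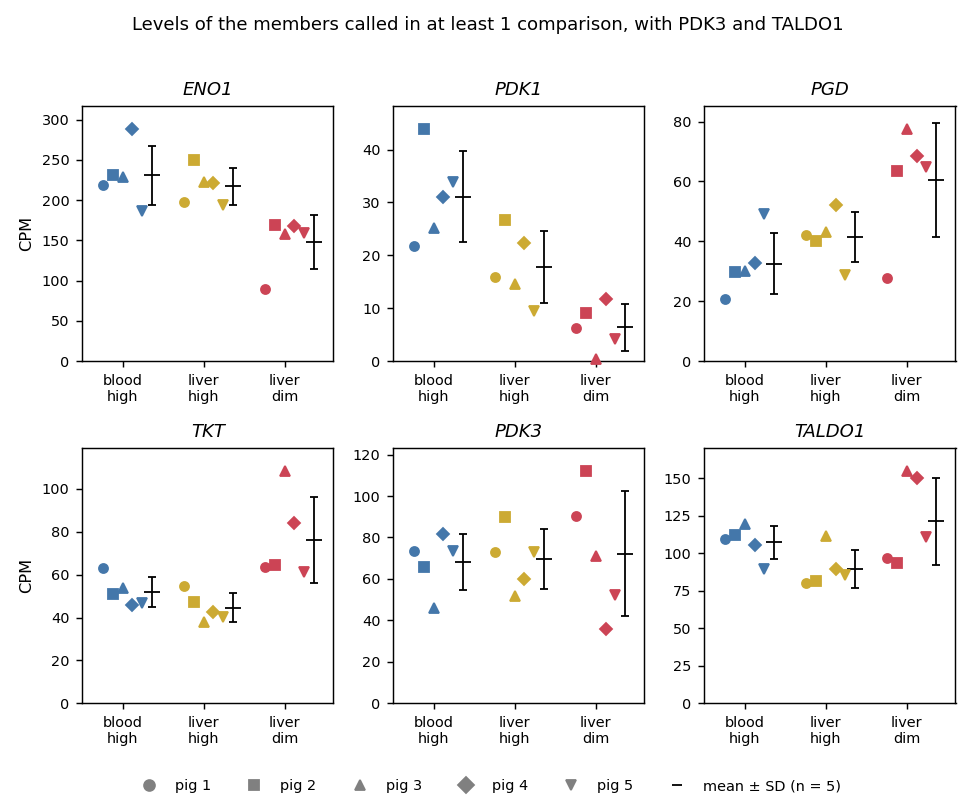
CPM of 6 genes on the y axis, in each population on the x axis, with a point for each pig (symbols) and the mean with SD (n = 5) in black. All 5 lrNK libraries lie below the CD8α high libraries for *ENO1*, and *PGD* is at 27.8 CPM in the lrNK library of pig 1 against 63.4 to 77.5 CPM in the other 4.

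The pentose phosphate genes had the calls in the upward direction. *PGD* encodes 6-phosphogluconate dehydrogenase, a step that yields NADPH, and lies on chromosome 6 from 70675751 to 70692697. Its level was 20.9, 29.9, 30.1, 32.9 and 49.1 CPM in blood pigs 1 to 5, 42.1, 40.1, 43.2, 52.2 and 28.9 CPM in liver CD8α high cells and 27.8, 63.4, 77.5, 68.5 and 64.8 CPM in CD8α dim lrNK cells. All 5 pigs were higher in CD8α dim lrNK cells than in blood, but the lrNK library of pig 1 was below 4 of the blood libraries. Means were 32.6 ± 10.3 CPM (SD, n = 5), 41.3 ± 8.35 CPM and 60.4 ± 19.0 CPM. The log2 fold change of CD8α dim lrNK cells was 0.89 (edgeR, SE 0.27, adjusted p = 0.0249) against blood and 0.55 (edgeR, SE 0.27, adjusted p = 0.213) against liver CD8α high cells. The call against blood was lost without pig 2, 3 or 4 (adjusted p = 0.109, 0.101 and 0.0955, edgeR) and in a fit of only the 2 populations compared (adjusted p = 0.0551), with an adjusted p of 0.0133 to 0.109 over all alternatives run. Without the lrNK library of pig 3 alone, the log2 fold change was 0.81 (adjusted p = 0.0404, edgeR).

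*TKT* encodes transketolase, of the non-oxidative branch, and lies on chromosome 13 from 35348921 to 35377518. It was at 63.1, 51.0, 53.7, 45.9 and 46.7 CPM in blood pigs 1 to 5, 54.9, 47.2, 37.9, 42.7 and 40.4 CPM in liver CD8α high cells and 63.5, 64.3, 108, 84.3 and 61.1 CPM in CD8α dim lrNK cells. All lrNK libraries were above all liver CD8α high libraries. Means were 52.1 ± 6.95 CPM (SD, n = 5), 44.6 ± 6.69 CPM and 76.3 ± 20.1 CPM. The log2 fold change of CD8α dim lrNK cells was 0.77 (edgeR, SE 0.20, adjusted p = 0.0108) against liver CD8α high cells and 0.55 (edgeR, SE 0.20, adjusted p = 0.0634) against blood, with all 5 pigs higher in both. DESeq2 (adjusted p = 0.0416), library totals without scaling factors (0.0452), a stricter low-count filter (0.0437) and leaving out pig 1 (0.0437) brought the comparison with blood under the threshold, over a range of 0.0416 to 0.227. Against liver CD8α high cells, the call was lost without pig 3 or 4 (adjusted p = 0.0810 and 0.0609, edgeR; 0.00200 to 0.0810 over all alternatives run) but not without the lrNK library of pig 3 alone (adjusted p = 0.0224, edgeR).

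*TALDO1* encodes transaldolase, the partner of transketolase. Its level was 109.7, 112, 119.7, 105 and 89.7 CPM in blood pigs 1 to 5, 80.5, 81.2, 111, 89.3 and 85.3 CPM in liver CD8α high cells and 96.8, 93.6, 154, 150.2 and 110.5 CPM in CD8α dim lrNK cells, with all 5 pigs higher in CD8α dim lrNK cells than in liver CD8α high cells. The log2 fold change between these was 0.44 (edgeR, SE 0.18, adjusted p = 0.115) and was not called, although DESeq2 with the pig as a block gave an adjusted p of 0.0395, in a range of 0.0395 to 0.348 over all alternatives run. Summed over the 3 pentose phosphate genes, the level was 194, 193, 204, 184 and 186 CPM in blood, 177, 168, 192, 184 and 155 CPM in liver CD8α high cells and 188, 221, 340.0, 303 and 236 CPM in CD8α dim lrNK cells. The sum was highest in the lrNK library of pig 3, and the lrNK libraries of pigs 2 to 5 were above all CD8α high libraries. Of the other pentose phosphate genes, 5 were tested, among them *PGLS*, *RPE*, *RPIA* and *RBKS*, and gave 0 calls in each comparison (edgeR, 0 with an unadjusted p under 0.05, 0 by DESeq2), while *H6PD* and *TKTL1* did not pass the filter. The background was 18.2% of all genes for CD8α dim lrNK cells against blood, 14.6% within the liver and 0.064% between the CD8α high populations.

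The fructose 2,6-bisphosphate enzymes, which set the pace of phosphofructokinase, were low and uneven. *PFKFB3* was at 4.30 to 33.6 CPM and *PFKFB4* at 0 to 10.7 CPM. Neither was called, and the standard error of *PFKFB4* was 0.99 on the log2 scale against blood. *PFKFB3* was higher in CD8α dim lrNK cells than in liver CD8α high cells without pig 3, with 1.45 as its log2 fold change (adjusted p = 0.0356, edgeR), against 0.81 with all pigs (adjusted p = 0.297, edgeR). *PGM1* and *GYS1*, of glycogen synthesis, were at 10.7 to 63.0 CPM and 9.55 to 50.3 CPM and were not called. *BNIP3* and *HIF1A*, of the HIF axis, were at 23.2 to 50.1 CPM and 0 to 5.01 CPM and were not called.

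Of 73 other genes of these pathways, fixed as 7 lists, 72 were counted and 48 were tested. In CD8α dim lrNK cells against blood, 5 of the 48 were higher and 3 lower (background 8.62% and 9.6%), and against liver CD8α high cells 4 were higher and 3 lower (background 6.96% and 7.68%). Between the CD8α high populations 0 were called (background 0.064%), with 3 at an unadjusted p under 0.05 (edgeR), and DESeq2 called 0, or 1 with the pig as a block (*DDIT4*). The median log2 fold change over the 48 was 0.18, -0.028 and 0.18 in CD8α dim lrNK cells against blood, CD8α dim lrNK cells against liver CD8α high cells and liver CD8α high cells against blood. The genes called were in the glycogen, HIF axis, glycolysis and gluconeogenesis lists. The lists of other pyruvate entry genes (6 tested) and of transcriptional and energy regulators (4 tested, with *MYC* at 3.79 to 57.1 CPM and *TXNIP* at 109 to 439.8 CPM) gave 0 calls in every comparison (edgeR and DESeq2), with 1 and 2 unadjusted p under 0.05 over the 3 comparisons.

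Of 10 other glycogen genes tested, 3 were higher in CD8α dim lrNK cells than in blood (background 8.62%), among them *GYG1* and *PYGB*, and these 2 were also higher than in liver CD8α high cells (background 6.96%). *GYG1*, the glycogenin that primes glycogen, was at 84.5, 109, 92.5, 71.9 and 99.97 CPM in blood pigs 1 to 5, 195, 123, 91.2, 93.1 and 86.7 CPM in liver CD8α high cells and 187, 175, 264, 216 and 267 CPM in CD8α dim lrNK cells. The blood and lrNK libraries did not overlap, while the liver CD8α high library of pig 1 was inside the lrNK range. The log2 fold change was 1.28 (edgeR, SE 0.22, adjusted p = 0.000205) against blood and 0.92 (edgeR, SE 0.21, adjusted p = 0.00500) against liver CD8α high cells, where the call was lost without pig 5 (adjusted p = 0.0679, edgeR). *PYGB*, a glycogen phosphorylase, was at 36.1, 57.1, 14.6, 51.7 and 43.6 CPM in CD8α dim lrNK cells, 12.5, 12.1, 12.8, 21.7 and 11.6 CPM in blood and 29.7, 20.6, 24.3, 7.07 and 10.7 CPM in liver CD8α high cells, with the lrNK library of pig 3 inside the CD8α high range. Its log2 fold change was 1.53 (edgeR, SE 0.39, adjusted p = 0.00816) against blood, lost without pig 2 (adjusted p = 0.0700), and 1.15 (edgeR, SE 0.39, adjusted p = 0.0494) against liver CD8α high cells. In the fit blocked by pig the latter was no longer called (adjusted p = 0.0806, edgeR), nor was it in DESeq2 with the same block (0.0585), in a fit of only the 2 populations compared (0.0871) or without pig 2, 4 or 5 (adjusted p = 0.187, 0.206 and 0.218). Over all alternatives run, the adjusted p of *GYG1* was 3.11e-07 to 0.00251 and 0.000163 to 0.0679 and that of *PYGB* 0.000815 to 0.0700 and 0.00765 to 0.218.

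Of 12 other HIF axis genes tested, 3 were lower and 1 higher in CD8α dim lrNK cells than in blood (background 9.6% and 8.62%). Against liver CD8α high cells 3 were lower and 0 higher (background 7.68% and 6.96%). *BNIP3L*, a mitophagy receptor related to *BNIP3*, had the lowest adjusted p of the pathway genes. It was at 193, 204, 214, 212 and 231 CPM in blood pigs 1 to 5, 137, 149, 187, 172 and 191 CPM in liver CD8α high cells and 60.6, 48.0, 37.0, 73.3 and 50.4 CPM in CD8α dim lrNK cells. Every lrNK library was below every CD8α high library. The log2 fold change was -1.96 (edgeR, SE 0.18, adjusted p = 8.07e-08) against blood and -1.63 (edgeR, SE 0.18, adjusted p = 1.08e-06) against liver CD8α high cells, and both calls were kept in every alternative run. *BNIP3L* was also lower in liver than in blood CD8α high NK cells of all 5 pigs, without overlap of libraries. That log2 fold change was -0.33 (edgeR, SE 0.17, adjusted p = 0.9996), which was not called. *NDRG1* was at 40.7, 59.0, 111, 66.3 and 59.5 CPM in CD8α dim lrNK cells, 125, 126, 176, 78.8 and 162 CPM in blood and 123, 119, 125, 89.3 and 181 CPM in liver CD8α high cells, and the highest lrNK library, that of pig 3, was within the CD8α high range. Its log2 fold change was -0.99 (edgeR, SE 0.26, adjusted p = 0.00854) against blood, lost without pig 5 (adjusted p = 0.0570), and -0.92 (edgeR, SE 0.25, adjusted p = 0.0162) against liver CD8α high cells, lost without pig 1, 2 or 5 (adjusted p = 0.0750, 0.0745 and 0.141). These 2 calls had an adjusted p of 0.000291 to 0.0570 and 0.000698 to 0.141 over all alternatives run.

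*DDIT4*, an inhibitor of mTORC1, had 159, 351, 186, 255 and 116 CPM in blood, 99.5, 143, 54.1, 62.4 and 110.1 CPM in liver CD8α high cells and 75.2, 151, 23.4, 96.6 and 98.5 CPM in CD8α dim lrNK cells. Both liver populations had lower means than blood, the lrNK library of pig 2 was within the blood range, and the call was in CD8α dim lrNK cells against blood (log2 fold change -1.26, edgeR, SE 0.37, adjusted p = 0.0187), lost without pig 1 or 4 (adjusted p = 0.0615 and 0.0710). For liver CD8α high cells against blood the log2 fold change of *DDIT4* was -1.19 (edgeR, SE 0.36, adjusted p = 0.547), of similar size and lower in 5 of 5 pigs but not called, and between the liver populations it was -0.075 (edgeR, SE 0.36, adjusted p = 0.939). *ANKRD37*, a HIF target, was higher in CD8α dim lrNK cells than in blood, at 41.5, 38.4, 28.7, 52.2 and 38.7 against 20.1, 35.9, 21.2, 14.5 and 23.9 CPM (log2 fold change 0.79, edgeR, SE 0.27, adjusted p = 0.0431), which was lost without pig 1, 4 or 5 (adjusted p = 0.143, 0.238 and 0.111), without the low-count filter (0.0885), in a fit of only the 2 populations compared (0.0826) and without the liver CD8α high library of pig 1 (adjusted p = 0.0521). Its blood and lrNK levels overlapped, and its locus overlaps *UFSP2* by 1129 bases. *EGLN1*, a prolyl hydroxylase that marks HIF1A for breakdown, was lower in CD8α dim lrNK cells than in liver CD8α high cells, at 45.3, 55.2, 17.5, 43.0 and 53.0 against 54.2, 97.0, 60.5, 86.0 and 93.4 CPM (log2 fold change -0.87, edgeR, SE 0.26, adjusted p = 0.0302), and lost the call without pig 2, 4 or 5 (adjusted p = 0.0843, 0.105 and 0.101) and in a fit of only the 2 populations compared (0.0595). Of its lrNK libraries, 1 (pig 2) was above the lowest liver CD8α high library. Over all alternatives run, the adjusted p of *DDIT4* was 5.01e-05 to 0.0710, that of *ANKRD37* 0.0173 to 0.238 and that of *EGLN1* 0.00407 to 0.105.

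Among 9 other glycolysis genes tested, *MINPP1* was higher in CD8α dim lrNK cells than in blood and *TIGAR* higher than in liver CD8α high cells (1 of 9 each, background 8.62% and 6.96%). *TIGAR*, a phosphatase that lowers fructose 2,6-bisphosphate, was at 51.9, 53.3, 68.2, 37.4 and 40.0 CPM in CD8α dim lrNK cells, 36.3, 19.2, 21.5, 27.6 and 21.7 CPM in liver CD8α high cells and 40.1, 26.9, 22.5, 22.0 and 57.0 CPM in blood. All lrNK libraries were above all liver CD8α high libraries, with a log2 fold change of 0.99 (edgeR, SE 0.29, adjusted p = 0.0235), lost without pig 2 or 3 (adjusted p = 0.1202 and 0.102). *MINPP1* was at 6.23, 20.2, 10.7, 5.06 and 14.6 CPM in CD8α dim lrNK cells and 3.79, 2.74, 2.17, 5.78 and 2.39 CPM in blood, a log2 fold change of 1.74 (edgeR, SE 0.56, adjusted p = 0.0325). The lrNK library of pig 4 was within the blood range. The call was lost in the fit blocked by pig (adjusted p = 0.0774, edgeR), without the low-count filter (0.0798), in a fit of only the 2 populations compared (0.0567) and without pig 2, 3 or 5 (adjusted p = 0.201, 0.0844 and 0.147). Of 2 gluconeogenesis genes tested, 1 (background 6.96%), the fructose-bisphosphatase gene *FBP1*, was higher in CD8α dim lrNK cells than in liver CD8α high cells, at 14.5, 12.0, 15.1, 11.0 and 13.3 against 1.73, 0, 3.07, 4.31 and 2.39 CPM. Each lrNK library was above all others, including the blood libraries at 1.35, 3.84, 7.87, 7.59 and 2.73 CPM. Within the liver the log2 fold change was 2.48 (edgeR, SE 0.69, adjusted p = 0.0177), and the call was lost without pig 1 or 5 (adjusted p = 0.0557 and 0.0777). Against blood the log2 fold change of *FBP1* was 1.49 (edgeR, SE 0.67, adjusted p = 0.137), which was not called. Over the alternatives that included each gene, the adjusted p was 0.0112 to 0.1202 for *TIGAR* (17 fits), 0.00872 to 0.201 for *MINPP1* (16 fits) and 0.000285 to 0.0777 for *FBP1* within the liver (16 fits). Counts were low for *MINPP1*, at 7 to 56 per library, and for *FBP1*, at 0 to 51.

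**Figure D3:**
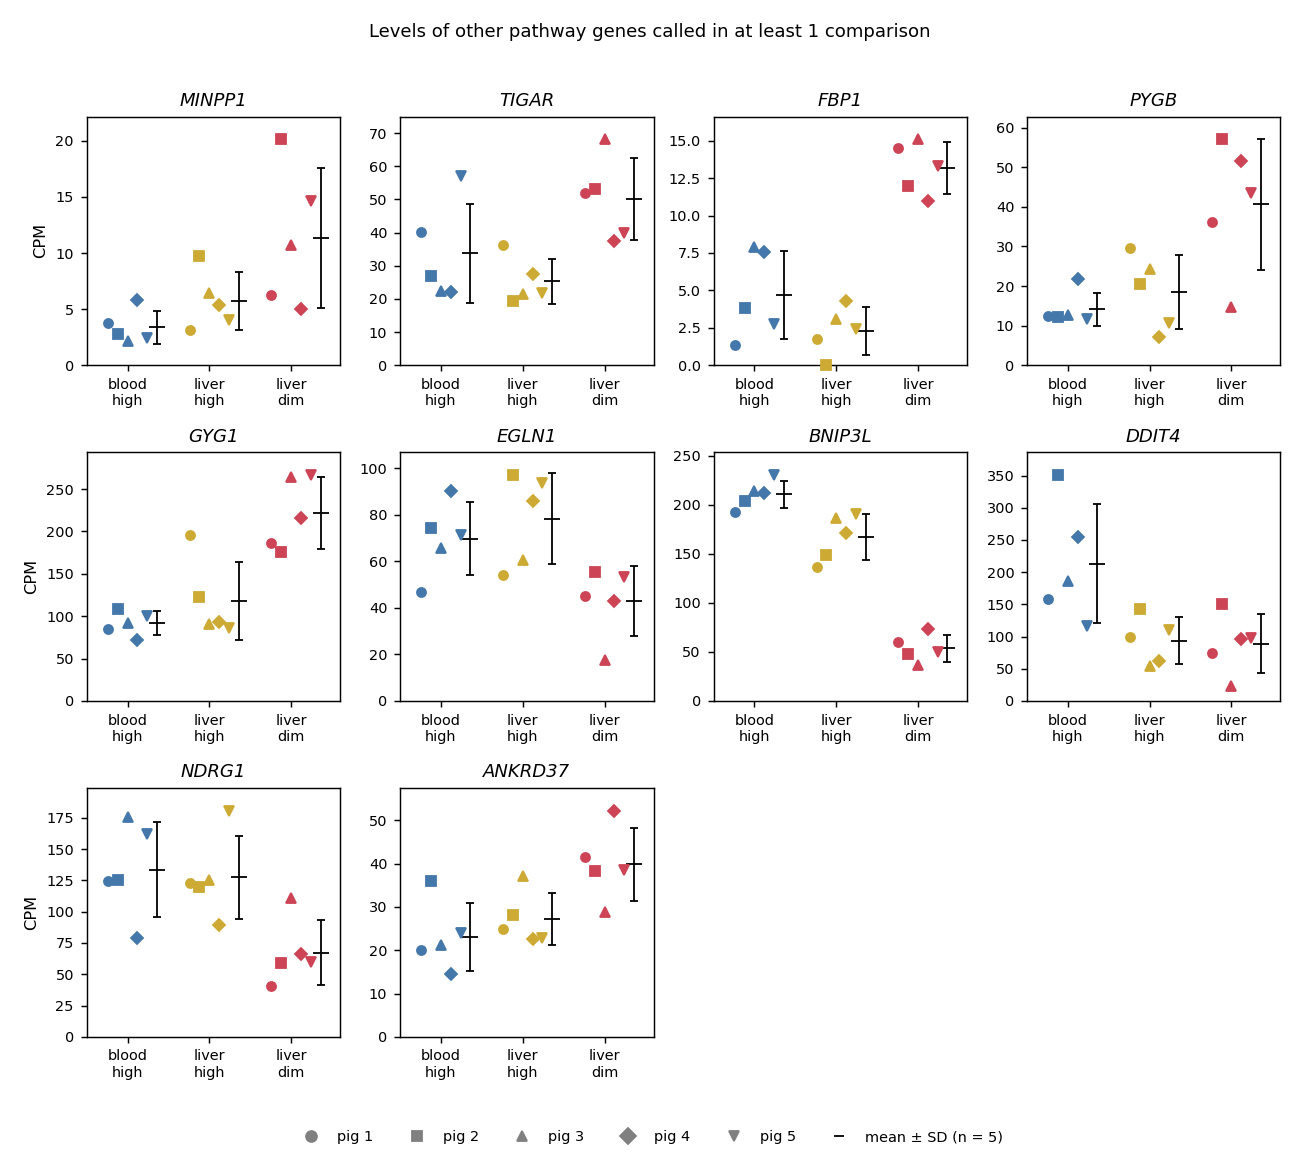
CPM of 10 other pathway genes called in at least 1 comparison on the y axis, in each population on the x axis, with a point for each pig and the mean with SD (n = 5) in black. *BNIP3L* in lrNK cells lies below both CD8α high populations in all 5 pigs, and *FBP1* lies above them.

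Counts of some of these genes are uncertain. Of the 31 genes, 12 overlap another gene of the RefSeq table, which gives no strand, among them *GAPDH* with *IFFO1* (155 bases), *PDHA1* with *MAP3K15* (2011 bases) and *HIF1A* with *LOC106507611* (977 bases, 348 counts against 95). *ENO1* overlaps *LOC110261088*, which had 0 counts, and *PGD* and *TKT* overlap no gene of the table. *GAPDH*, *PGK1*, *LDHA*, *ENO1* and *TPI1* belong to families with many processed pseudogenes in mammals, so reads with several alignments may be split or lost. A count near a transcript end also depends on the annotated end of the gene, and its part in the low levels of *HK2*, *ENO2*, *TPI1* and *HIF1A* was not tested.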

How the data were processed

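RNA of 3 NK cell populations from 5 pigs was sequenced from the 3′ end, giving 15 libraries. The authors deposited raw counts per gene; the submitters' processing notes name HISAT2, and the genome was Sscrofa11.1. How reads were assigned to genes, on which strand, and what became of multi-mapping reads is not stated. Each of 15 columns was assigned by its label, leaving 0 unmatched. Depth ran from 2003499 to 5680221 counts.

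Counts were analysed in R 4.3.3 with edgeR 4.0.16 (TMM scaling, filterByExpr by population, quasi-likelihood F test, Benjamini-Hochberg adjustment over 10939 genes), all libraries in a single fit without block. CPM are counts over TMM-scaled library size, and standard errors are the log2 fold change over the square root of F. Alternatives were DESeq2 1.42.0, DESeq2 size factors, upper quartile or no scaling in edgeR, no filter or a minimum count of 50, robust dispersion, a pig block, fits restricted to 2 populations, thresholds of 0.01 and 0.10, leaving out each pig and, chosen with the data known, the liver CD8α high library of pig 1 and the lrNK library of pig 3 left out alone. The function was tested on simulated counts. Python 3.11.15 with matplotlib 3.10.9 made the tables and figures.

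Members, lists and rules were chosen with earlier results of these data known. Genes are named if called in at least 1 comparison or if they are the other isoform of the same step, and members called under an alternative (*LDHB*, *TALDO1*, *PFKFB3*), with their partners *LDHA* and *PFKFB4*, were added after their values were seen. Marker lists cover NK, T, B, myeloid, hepatocyte, endothelial, erythroid and platelet genes and proliferation. Pairing by pig comes from the labels and the paper's methods: deviations from population means of libraries of the same pig correlated at 0.107 on average (-0.0191 to 0.193, 15 pairs), against -0.0265 between pigs. Positions are from a RefSeq table of Sscrofa11.1, which matched all 31 genes. Some genes of the lists are counted but not reported here by name. Replicates are separate pigs.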

Additional observations from a re-analysis of the deposited data

Results flagged for a closer look

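In 7 of 84 sets of 5 libraries (28 genes in 3 populations), 1 library lay far from the other 4 by Dixon's ratio of gap to range. Chance flags about 1 in 20 such sets. *HK1* was at 243 CPM in the lrNK library of pig 3, against 105 to 135 CPM in the other 4. *PFKL* was at 12.7 CPM in the liver CD8α high library of pig 2, against 6.91 to 7.88 CPM in the other 4. *ENO1* was at 89.3 CPM in the lrNK library of pig 1, against 158 to 168 CPM in the other 4. *PDHA1* was at 104 CPM in the liver CD8α high library of pig 2, against 71.9 to 79.4 CPM in the other 4. *PGD* was at 27.8 CPM in the lrNK library of pig 1, against 63.4 to 77.5 CPM in the other 4. *TALDO1* was at 111 CPM in the liver CD8α high library of pig 3, against 80.5 to 89.3 CPM in the other 4. *HIF1A* was at 0 CPM in the lrNK library of pig 5, against 2.53 to 3.41 CPM in the other 4.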

How the results depend on the processing

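The number of member genes higher in CD8α dim lrNK cells than in blood, 1 in the fit reported, was 2 with DESeq2, with library totals without scaling factors, with the stricter filter, with DESeq2 and the replicate block and at an adjusted p under 0.10, and 0 in a fit of only the 2 populations and at an adjusted p under 0.01. Leaving out libraries gave 0 to 3. The number lower was 2, and 1 at an adjusted p under 0.01. Against liver CD8α high cells, the number higher was 2 with DESeq2 and the block and 0 at an adjusted p under 0.01 (0 to 1 with libraries left out), and the number lower was 0 in the fit of only the 2 populations and at an adjusted p under 0.01 (0 to 2 with libraries left out). The cause was not tested, other than that fits with libraries left out or with only 2 populations hold fewer samples. With the pig as a block in edgeR, the member counts were 1 higher and 2 lower in both lrNK comparisons, and the block changed no member call. Of the other pathway and marker genes, *MINPP1*, *PYGB* within the liver and *LYZ* lost a call with it, and *EGLN1* (lower) and *TOP2A* (higher) against blood and *CD3E* (lower) within the liver gained one (adjusted p = 0.0310, 0.0241 and 0.0418, edgeR).

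Over all genes tested, 1993 were called between CD8α dim lrNK cells and blood (1199 at an adjusted p under 0.01), 1601 between CD8α dim lrNK cells and liver CD8α high cells (947 at 0.01, 1051 to 1764 with libraries left out) and 7 between liver CD8α high cells and blood. The last was 22 with DESeq2, 175 with DESeq2 and the replicate block, 18 without the filter, 4 with robust dispersion, 16 in the fit of only the 2 populations, 0 at 0.01 and 0 to 12 with libraries left out.

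Of 1414 member fold changes under alternatives, 59 had the opposite sign, none of a gene called in either fit, and 49 of the 59 came with libraries left out. They fell on 17 genes: *PDHA1* (10), *PGAM1* (8), *PDK3* (7), *ALDOA* (5), *PFKL* (5), *GAPDH* (4), *HIF1A* (4), *GPI* (2), *HK1* (2), *LDHA* (2), *PDHB* (2), *PKM* (2), *TPI1* (2), *ALDOC* (1), *GYS1* (1), *PFKFB4* (1) and *PGK1* (1). The log2 fold changes of these in the fit reported were at most 0.31 in size. *PFKL* within the liver went from 0.087 to -0.12 with the pig as a block and *PGAM1* from 0.013 to -0.0085. *PDK3* ran through 0 with libraries left out (-0.15 to 0.32 against blood, -0.055 to 0.17 against liver CD8α high cells and -0.091 to 0.15 for liver CD8α high cells against blood) and was -0.00035 in the last with DESeq2 and the block. *LDHA* ran from -0.12 to 0.11 against liver CD8α high cells and *PFKFB4* from -0.83 to 0.13 for liver CD8α high cells against blood. No scaling alternative moved the median of all genes by over 0.1. Adding 2 in place of 0.5 to counts moved no mean isoform ratio by 1 SD. The low counts of *HIF1A*, *PFKFB4* and *PDK1* in CD8α dim lrNK cells, and of *MINPP1*, *FBP1* and *LYZ* outside the group, limit what their tests can show. Leaving out the liver CD8α high library of pig 1 or the lrNK library of pig 3 alone was chosen after seeing the data.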
